A study of Mus with 8 samples.

Results

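The mitochondrial respiratory chain is built from subunits of separate protein complexes, and 47 genes of the nuclear genome that code for such subunits were examined here: 25 of complex I, 4 of complex II, 7 of complex III and 11 of complex IV. They were chosen by name, with earlier results of these data known, though the choice of genes used no measured value as a criterion. Each was read from the array probe whose RefSeq accession belonged to the gene, taking the brightest on average where there were several. All but Cox5b had such a probe, so 46 of the 47 were measured, among 31281 genes and transcripts tested. Each of the 46 was well above background on all 8 arrays, so the filter on dim probes removed no member.

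Oxidative phosphorylation passes electrons from NADH (through complex I) and from succinate (through complex II) to ubiquinone, then through complex III and cytochrome c to oxygen at complex IV. The protons pumped on the way drive ATP synthesis by complex V. Apart from complex II, each complex combines subunits coded by the mitochondrial genome with a larger number coded in the nucleus, and tumours differ widely in how far they rely on this route rather than on glycolysis.

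The tissue was whole tumour grown under the skin of B6 mice. The implanted cells, MC38, are an established line of mouse colon cancer. There were 4 tumours from wild-type mice (the WT host) and 4 from mice that were Ext1 flox/flox and carried S100a4-Cre (the Ext1S100a4Cre host), numbered 1 to 4 in each group. Ext1 codes for an enzyme that lengthens heparan sulfate chains, and the S100a4 promoter is active in fibroblasts and also in some immune cells. The cancer cells came from the same MC38 line in both groups and not from the host, so only host cells could lose Ext1. Tumours were removed 25 to 30 days after transplantation, and 0.5 µg of total RNA from each was labelled with Cy3 and hybridised to its own 1-colour Agilent array. Ages and sexes of the mice are not in the labels, and no group of floxed mice without Cre, or of Cre mice without floxed Ext1, was analysed here.

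Levels are given as log2 of the deposited processed intensity minus the array's 75th percentile over all spots that are not controls, so that 0 is the level of that percentile. All 46 members lay above it on each array. Differences are Ext1S100a4Cre host minus WT host on this log2 scale, with limma's standard error (SE) and its p adjusted by Benjamini-Hochberg over all 31281 genes. The p-values measure the spread between these tumours only. In whole tumours, a higher share of cells that use a gene and more of its RNA per cell cannot be told apart.

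Signal differed between the arrays of the Ext1S100a4Cre host. On the linear scale the 75th percentile lay between 847 and 1265, and was lowest on the arrays of Ext1S100a4Cre host tumours 1 and 4 (855 and 847), which also had the fewest probes well above background (65.7% and 66.0%, against 68.8% to 71.1% on the other 6). In the same 2 tumours none of 4 Y-linked genes (Ddx3y, Eif2s3y, Kdm5d and Uty) was well above background, while all 4 were in the other 6 tumours. Ext1 itself had levels of -0.55, -0.28, 0.24 and -0.14 in WT host tumours 1 to 4 and of -0.62, -0.27, -0.54 and -0.42 in the Ext1S100a4Cre host, which overlapped (difference -0.28, SE 0.18, limma adjusted p = 0.747). With Ext1 intact in the cancer cells, that value is no check of the labels. Counts and medians of each complex and each pathway list are given below with and without these tumours.

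Host genotype and respiratory chain levels were first compared across the 46 members as a whole. In 43 of the 46 the mean was higher in the Ext1S100a4Cre host and in 3 it was lower (Ndufb5, Cyc1 and Uqcrb), whereas 7 of 46 were higher where intensities were left without scaling between arrays. The median difference was 0.14, with a range from -0.083 (Ndufb5) to 0.40 (Ndufa5, 1.32-fold). Over all tested genes 58.1% had a higher mean and the median difference was 0.050. Leaving out the scaling changed every member's difference by the same -0.25 and thus not their order. The median over all genes then moved to -0.20 and that of the members to -0.11, so that the gap between members and all genes was 0.091 under both settings; under quantile normalization it was 0.0013, with 33 of 46 members higher.

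None of the 46 differences passed the adjusted threshold of 0.05, with limma adjusted p-values from 0.747 to 0.996. Over all genes tested the call rate was 0%: limma called 0 of 31281, while 2050 had an unadjusted p under 0.05; without WT host tumour 3 it called 2 genes, neither of them a member. At that unadjusted level 4 members were higher and 0 lower, which is 8.70% of the members beside 4.39% of all genes called higher. The count of 4 was 0 without Ext1S100a4Cre host tumour 1, 1 without WT host tumour 2, 2 without any of WT host tumours 1, 3 and 4 or Ext1S100a4Cre host tumours 2 and 4, and 4 without Ext1S100a4Cre host tumour 3. It was 0 under array median scaling, 0 under quantile normalization, 1 without scaling and 7 with array weights. After scaling between arrays, each tumour of the Ext1S100a4Cre host lay above each WT host tumour in 9 members. That is 19.6% of them beside 3.38% of all genes. Those 9 were Ndufa5, Ndufa6, Ndufa7, Ndufb3, Ndufb4, Ndufb9, Ndufs3 and Ndufv2 of complex I and Ndufa4 of complex IV. On the same scaled levels no member was lower in all tumours of the Ext1S100a4Cre host. Without scaling, the differences of Ndufb3 (-0.030), Ndufb4 (-0.12), Ndufb9 (-0.088), Ndufs3 (-0.082) and Ndufv2 (-0.034) were below 0. The groups of these genes could then not be separated in that direction. Ndufa5 (0.15), Ndufa6 (0.062), Ndufa7 (0.14) and Ndufa4 (0.085) stayed above 0, but their overlap without scaling was not counted.

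The members were bright on these arrays, and brightness went with the difference between hosts. Within the members' range of mean level (2.45 to 7.61) lay 4150 other tested genes, of which 78.0% had a higher mean in the Ext1S100a4Cre host, with a median difference of 0.12. The 26954 genes below that range had a median of 0.031. Compared with the other bright genes, the members' median was therefore 0.14 against 0.12. The share without overlap between the groups, counted only after scaling between arrays, was 19.6% against 3.46%. The median SD between WT host tumours was 0.089 for the members against 0.17 for the other bright genes. After quantile normalization the order by brightness was not kept. The median difference was then 0.017 for the other bright genes, 0.031 for the genes below that range and 0.029 for the members.

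**Figure D1:**
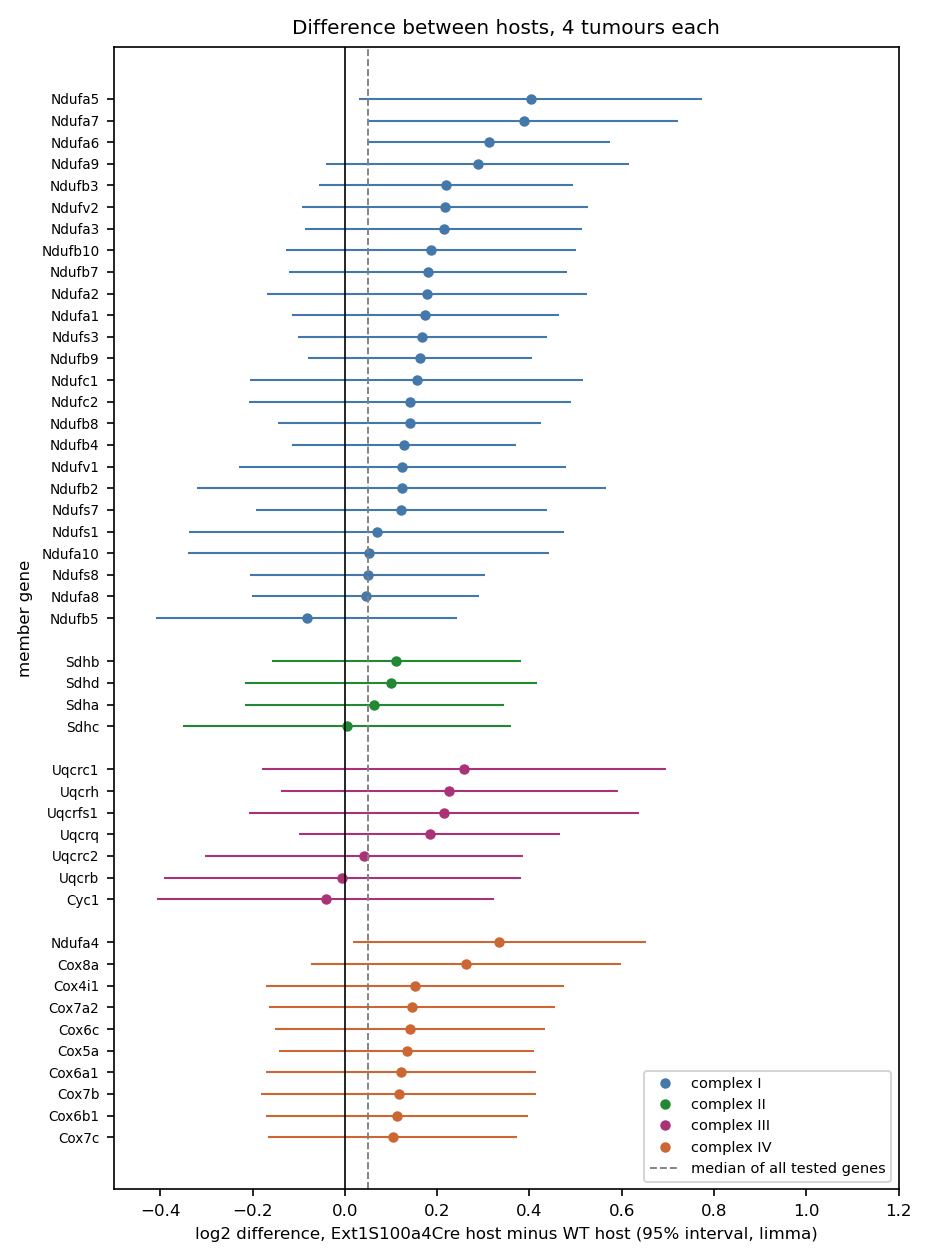
Log2 difference between hosts (horizontal axis) for the 46 measured member genes, grouped by respiratory complex and ordered by size, with limma's 95% interval; 4 tumours in each group. Of the points, 43 lie right of 0 (7 of 46 without scaling between arrays), and the dashed line marks the median of all tested genes at 0.050; Ndufa5, Ndufa7, Ndufa6 and Ndufa4 are the members whose intervals lie wholly right of 0.

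Single tumours showed where the higher means came from. After subtraction of each gene's mean over the 8 tumours, the median over the 46 members was -0.044, -0.065, -0.12 and -0.093 in WT host tumours 1 to 4. It was 0.25 and 0.20 in Ext1S100a4Cre host tumours 1 and 4, and -0.074 and -0.047 in tumours 2 and 3. The 2 tumours of high median thus stood apart from the other 6, and tumours 2 and 3 lay among those of the WT host. Ext1S100a4Cre host tumour 1 exceeded every WT host tumour in 44 of 46 members and tumour 4 did so in 39, against 14 members for tumour 2 and 10 for tumour 3. Over all genes tested these shares were 38.3% for tumour 1, 34.2% for tumour 4, 23.7% for tumour 2 and 15.3% for tumour 3; among the other bright genes they were 67.8% and 61.2% for tumours 1 and 4.

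The highest of the 8 values was found in Ext1S100a4Cre host tumour 1 for 27 members and in tumour 4 for 15. In 39 members both of these tumours lay above every WT host tumour, among them all 10 of complex IV, 21 of 25 of complex I, 6 of 7 of complex III and 2 of 4 of complex II. Tumours 1 and 4 also had the arrays with the lowest 75th percentile. Before scaling, the median log2 intensity of the members was 14.67 and 14.61 in tumours 1 and 4, below the 14.75 to 15.01 of the WT host. It was 14.57 and 14.88 in tumours 2 and 3. The part of that array-wide difference in the result was not tested.

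With Ext1S100a4Cre host tumours 1 and 4 left out, 26 of 46 members had a higher mean (50.1% of all genes), and the median difference was 0.013 (0.00038 over all genes). At an unadjusted p under 0.05 there were 0 members, beside 3.91% of all genes called higher at that level. Limma then called 11 genes after adjustment, none of them a member. With tumours 2 and 3 left out instead, 46 of 46 were higher, the median was 0.29 (0.10 over all genes), and 15 members had an unadjusted p under 0.05, beside 10.4% of all genes called higher at that level, though limma called 0 genes after adjustment. The spread was wider in the Ext1S100a4Cre host for 38 of 46 members (57.0% of all genes), with a median SD of 0.18 against 0.089 in the WT host.

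**Figure D2:**
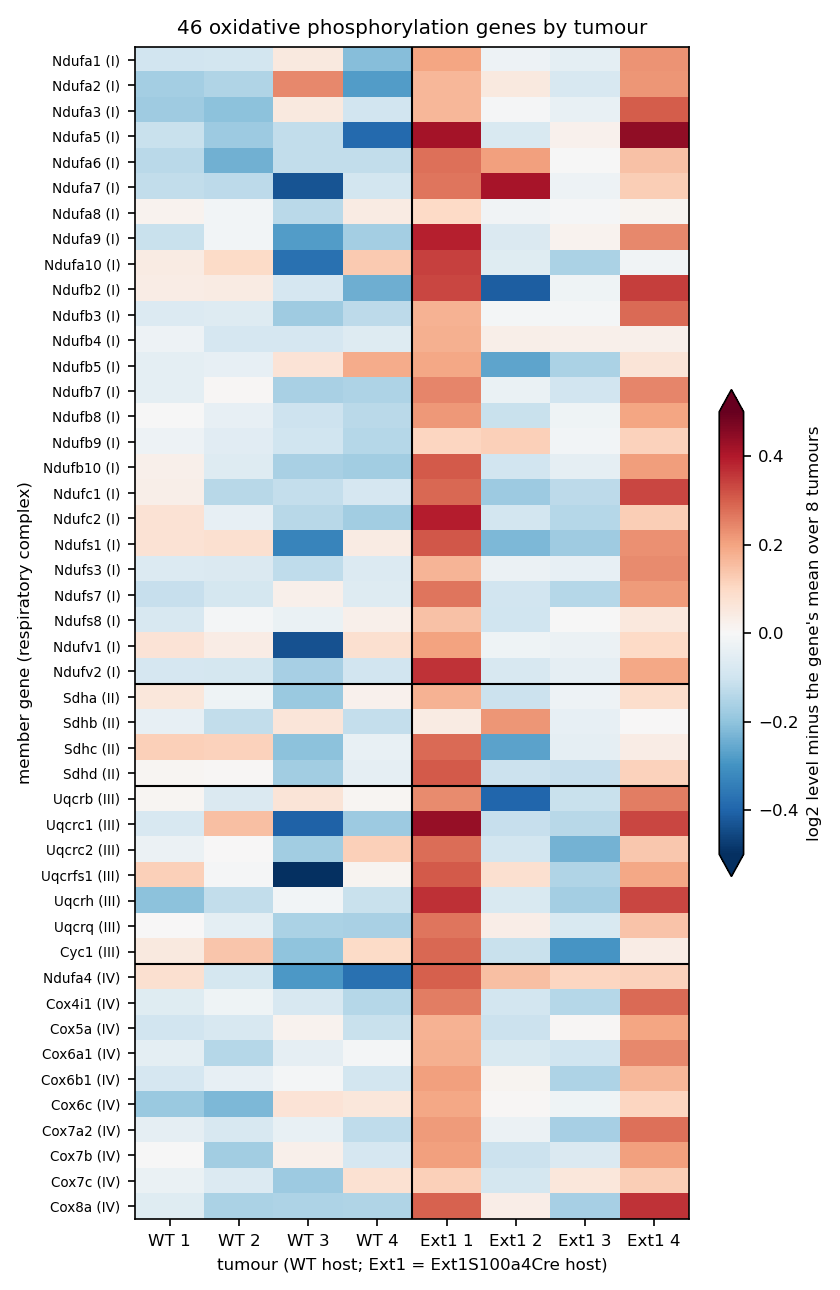
Level of each of the 46 measured members (vertical axis, respiratory complex in brackets) in each of the 8 tumours (horizontal axis), as the log2 level minus the gene's mean over all 8; red is above and blue below that mean, and the colours end at 0.5 in either direction. The columns of Ext1S100a4Cre host tumours 1 and 4 are red in nearly every line (median deviations 0.25 and 0.20), while those of tumours 2 and 3 are mixed (-0.074 and -0.047), as in the WT host (-0.12 to -0.044). Before scaling between arrays, the members' median intensity in Ext1S100a4Cre host tumours 1, 2 and 4 lay below that of every WT host tumour, and was lowest in tumour 2.

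Complex I takes electrons from NADH. Its redox centres lie in some of its core subunits, and its accessory subunits surround and stabilise the core. Of the 25 members, 24 had a higher mean in the Ext1S100a4Cre host (4 of 25 without scaling between arrays), with a median difference of 0.16 (17 of 25 and 0.037 without tumours 1 and 4); the 19 accessory subunits gave 18 higher and a median of 0.17, and the 6 core subunits gave 6 higher and a median of 0.12. No difference between accessory and core subunits was tested.

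Ndufa6, an accessory subunit that binds the mitochondrial acyl carrier protein, had levels of 5.00, 4.89, 5.01 and 5.01 in WT host tumours 1 to 4 and of 5.41, 5.34, 5.13 and 5.28 in Ext1S100a4Cre host tumours 1 to 4. All tumours of the Ext1S100a4Cre host were higher, tumour 1 the most. The difference was 0.31 (SE 0.11, limma adjusted p = 0.747; exact two-sided permutation p = 0.0286, the smallest that 4 against 4 tumours can give), and it lay between 0.062 and 0.43 under the 26 alternative settings.

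Ndufa7, an accessory subunit of the arm that reaches into the matrix, had 4.81, 4.80, 4.50 and 4.84 in the WT host and 5.20, 5.34, 4.90 and 5.05 in the Ext1S100a4Cre host. The groups did not overlap, WT host tumour 3 was lowest, and here Ext1S100a4Cre host tumour 2, not tumour 1 or 4, was highest. The difference was 0.39 (SE 0.15, limma adjusted p = 0.747), and without tumours 1 and 4 it was 0.39.

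Ndufa5, an accessory subunit near the ubiquinone-reducing part of the complex, had 5.50, 5.43, 5.49 and 5.22 in the WT host and 6.03, 5.54, 5.63 and 6.05 in the Ext1S100a4Cre host. Tumours 1 and 4 stood well above the other 6, while tumours 2 and 3 lay just above the highest WT host tumour. The difference of 0.40 (SE 0.16, limma adjusted p = 0.747) became 0.17 without tumours 1 and 4 and 0.63 without tumours 2 and 3.

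Ndufa9, an accessory subunit that binds a nucleotide cofactor beside the ubiquinone channel, had 2.86, 2.96, 2.69 and 2.81 in the WT host and 3.36, 2.90, 2.99 and 3.22 in the Ext1S100a4Cre host. The groups overlapped, since Ext1S100a4Cre host tumour 2 fell below WT host tumour 2. For Ndufa9 the difference was 0.29 (SE 0.14, limma adjusted p = 0.747), the highest among complex I members whose groups overlapped, and 0.12 without tumours 1 and 4.

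Ndufb3, an accessory subunit of the arm within the membrane, had 4.35, 4.35, 4.24 and 4.28 in the WT host and 4.59, 4.41, 4.41 and 4.70 in the Ext1S100a4Cre host. The groups did not overlap, but tumours 2 and 3 exceeded the highest WT host tumour by little. The difference was 0.22 (SE 0.12, limma adjusted p = 0.747), and 0.10 without tumours 1 and 4. Ndufa3, another accessory subunit of the membrane arm, had 4.86, 4.83, 5.09 and 4.94 in the WT host and 5.21, 5.03, 5.00 and 5.34 in the Ext1S100a4Cre host; WT host tumour 3 lay above tumours 2 and 3 of the other group, and the difference was 0.21 (SE 0.13, limma adjusted p = 0.747; 0.084 without tumours 1 and 4).

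The other 13 accessory subunits differed by -0.083 to 0.19, with SEs of 0.11 to 0.19 and limma adjusted p-values of 0.747 to 0.941. Among them, Ndufb4 (0.13, SE 0.11) and Ndufb9 (0.16, SE 0.11) showed no overlap between the groups. Ndufb9 was unusual in that Ext1S100a4Cre host tumours 1, 2 and 4 lay together, at 5.11, 5.12 and 5.12, above WT host values of 4.97, 4.94, 4.90 and 4.86. Ndufb5 was the complex I member with a lower mean in the Ext1S100a4Cre host (-0.083, SE 0.14): tumours 2 and 3, at 4.08 and 4.19, lay below all WT host tumours (4.30, 4.31, 4.41 and 4.53), and tumour 1 lay above them at 4.54.

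All 6 core subunits had a higher mean by 0.050 to 0.22, with SEs of 0.11 to 0.18 and limma adjusted p-values of 0.747 to 0.924. Ndufv2, which carries an iron-sulfur cluster beside the NADH site, showed no overlap: 4.11, 4.10, 4.03 and 4.10 in the WT host against 4.55, 4.11, 4.15 and 4.39 in the Ext1S100a4Cre host (difference 0.22, SE 0.13, limma adjusted p = 0.747; 0.047 without tumours 1 and 4). Tumours 2 and 3 exceeded the highest WT host value by little, while tumours 1 and 4 were clearly apart. Ndufs3, a core subunit of the ubiquinone-reducing part, showed no overlap either (0.17, SE 0.12). Ndufv1, which binds NADH and the flavin, gave 0.12 (SE 0.15), with WT host tumour 3 at 4.80 and the other 3 WT host tumours at 5.30, 5.27 and 5.32. The iron-sulfur subunits Ndufs1, Ndufs7 and Ndufs8 differed by 0.069 (SE 0.18), 0.12 (SE 0.14) and 0.050 (SE 0.11).

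**Figure D3:**
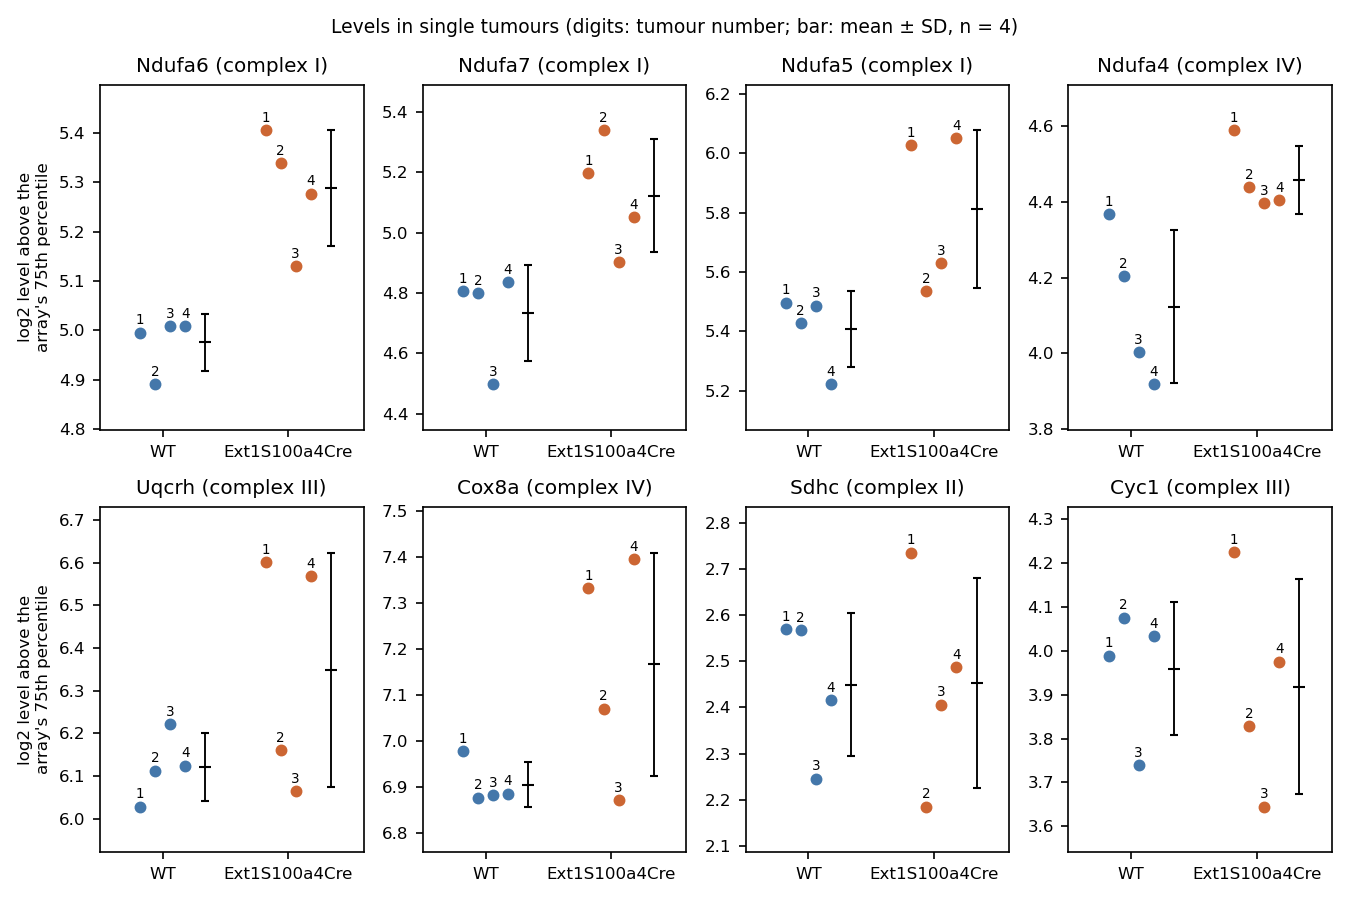
Log2 level, with the array's 75th percentile at 0 (vertical axis, range set for each gene) of 8 members in each WT host and Ext1S100a4Cre host tumour; points are tumours with their numbers, and the bar beside them is the mean ± SD of 4. In Ndufa6, Ndufa7, Ndufa5 and Ndufa4 the groups do not overlap; in Uqcrh and Cox8a tumours 1 and 4 of the Ext1S100a4Cre host stand above the rest; in Sdhc and Cyc1 the groups overlap widely, with differences of 0.0039 and -0.041.

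Complex II is the citric acid cycle enzyme succinate dehydrogenase, and all of its subunits are coded in the nucleus. The mean was higher in the Ext1S100a4Cre host for 4 of 4 members, with a median of 0.082, but for 0 of 4 without scaling between arrays and for 2 of 4 after quantile normalization; none was free of overlap. The median was 0.016 without Ext1S100a4Cre host tumour 1, 0.036 without WT host tumour 3, and -0.048 (1 of 4 higher) without Ext1S100a4Cre host tumours 1 and 4. Sdhb, the iron-sulfur subunit, had 4.83, 4.75, 4.93 and 4.76 in the WT host and 4.91, 5.10, 4.84 and 4.88 in the Ext1S100a4Cre host. It departed from most members in that tumour 2 was highest and tumours 1 and 4 lay within the WT host range (difference 0.11, SE 0.12, limma adjusted p = 0.803).

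Sdhd and Sdhc anchor the enzyme in the inner membrane and bind ubiquinone. Sdhd had 4.36, 4.36, 4.17 and 4.31 in the WT host and 4.66, 4.24, 4.23 and 4.46 in the Ext1S100a4Cre host, with tumours 1 and 4 above the WT host and tumours 2 and 3 inside its range (difference 0.10, SE 0.14, limma adjusted p = 0.847; -0.061 without tumours 1 and 4). Sdhc had 2.57, 2.57, 2.25 and 2.42 in the WT host and 2.74, 2.19, 2.41 and 2.49 in the Ext1S100a4Cre host. Here tumour 1 was above and tumour 2 below all WT host tumours, and the means nearly coincided (difference 0.0039, SE 0.15, 95% interval -0.35 to 0.36; -0.15 without tumours 1 and 4). Sdha, the flavin-bearing catalytic subunit, differed by 0.064 (SE 0.12, limma adjusted p = 0.893). Second probes of Sdha and Sdhb gave -0.014 and -0.022, the opposite sign to the probes used; of 9 second probes kept, 7 shared the sign of the first.

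Complex III moves electrons from ubiquinol to cytochrome c. Its 7 members gave 5 higher means in the Ext1S100a4Cre host and a median of 0.18 (1 of 7 and -0.066 without scaling between arrays), with the groups overlapping in all of them. That median was 0.066 without WT host tumour 3, 0.0092 (4 of 7 higher) after quantile normalization, and -0.0089 (3 of 7 higher) without Ext1S100a4Cre host tumours 1 and 4. Uqcrc1, a large core protein facing the matrix, had 4.43, 4.66, 4.11 and 4.33 in the WT host and 4.95, 4.40, 4.37 and 4.84 in the Ext1S100a4Cre host. Tumours 1 and 4 exceeded all WT host tumours and WT host tumour 3 was lowest (difference 0.26, SE 0.19, limma adjusted p = 0.754); without tumours 1 and 4 the difference was 0.0030.

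Uqcrh, the acidic hinge protein beside the site where cytochrome c docks, had 6.03, 6.11, 6.22 and 6.12 in the WT host and 6.60, 6.16, 6.06 and 6.57 in the Ext1S100a4Cre host. The split within the Ext1S100a4Cre host was wide: tumours 1 and 4 lay above every WT host tumour and tumours 2 and 3 inside their range (difference 0.23, SE 0.16, limma adjusted p = 0.748; -0.0089 without tumours 1 and 4). Uqcrq, a small subunit of the membrane part, had 6.62, 6.58, 6.46 and 6.46 in the WT host and 6.89, 6.66, 6.55 and 6.77 in the Ext1S100a4Cre host. Only tumour 3 overlapped the WT host (difference 0.18, SE 0.12, limma adjusted p = 0.747; 0.070 without tumours 1 and 4).

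Cyc1, the haem subunit that hands electrons to cytochrome c, had 3.99, 4.08, 3.74 and 4.03 in the WT host and 4.22, 3.83, 3.64 and 3.98 in the Ext1S100a4Cre host. Tumour 1 was the highest of the 8 and tumour 3 the lowest, and the mean was lower in the Ext1S100a4Cre host (difference -0.041, SE 0.16, limma adjusted p = 0.950; -0.22 without tumours 1 and 4 and 0.14 without tumours 2 and 3). Of the other 3 members, the Rieske iron-sulfur protein Uqcrfs1 differed by 0.21 (SE 0.18), the core protein Uqcrc2 by 0.042 (SE 0.15) and the small subunit Uqcrb by -0.0053 (SE 0.17). Uqcrb showed the wide spread seen in Cyc1: 5.21 and 5.23 in Ext1S100a4Cre host tumours 1 and 4, against 4.58 and 4.86 in tumours 2 and 3 and 4.98, 4.90, 5.03 and 4.98 in the WT host.

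Complex IV, cytochrome c oxidase, reduces oxygen to water; its catalytic subunits come from the mitochondrial genome and its nuclear subunits surround them. The 10 measured members all had a higher mean in the Ext1S100a4Cre host, with a median of 0.14 (2 of 10 and -0.11 without scaling between arrays). In all 10 both tumours 1 and 4 lay above every WT host tumour, though the share of all genes that did so was not counted. Without Ext1S100a4Cre host tumour 4 the median was 0.082, after quantile normalization it was 0.021 (7 of 10 higher), and without both tumours 1 and 4 it was 0.00022 (5 of 10 higher). Ndufa4, first described with complex I and now counted with complex IV, had 4.37, 4.20, 4.00 and 3.92 in the WT host and 4.59, 4.44, 4.40 and 4.40 in the Ext1S100a4Cre host. The groups did not overlap, and the 4 Ext1S100a4Cre host tumours lay closer together than those of the WT host (SD 0.090 against 0.20). The difference of 0.33 (SE 0.14, limma adjusted p = 0.747) was 0.30 without tumours 1 and 4.

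Cox8a, one of the smallest subunits, had 6.98, 6.88, 6.88 and 6.88 in the WT host and 7.33, 7.07, 6.87 and 7.40 in the Ext1S100a4Cre host. Tumours 1, 2 and 4 lay above the WT host and tumour 3 just below it (difference 0.26, SE 0.15, limma adjusted p = 0.747; 0.065 without tumours 1 and 4). Cox6a1, a nuclear subunit with a counterpart in heart and skeletal muscle, had 7.57, 7.47, 7.57 and 7.60 in the WT host and 7.79, 7.54, 7.51 and 7.86 in the Ext1S100a4Cre host, and Cox6b1, on the side facing the intermembrane space, had 2.49, 2.54, 2.57 and 2.49 and 2.78, 2.59, 2.42 and 2.74. In both genes tumours 1 and 4 were above the WT host; the differences were 0.12 (SE 0.13, limma adjusted p = 0.804) and 0.11 (SE 0.12, limma adjusted p = 0.811), and both turned below 0 without those tumours (-0.028 and -0.016).

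The other 6 members of complex IV, Cox4i1, Cox5a, Cox6c, Cox7a2, Cox7b and Cox7c, covered a narrow range of differences, 0.10 to 0.15, with SEs of 0.12 to 0.14 and limma adjusted p-values of 0.780 to 0.818. Cox4i1, the large nuclear subunit through which ATP acts on the enzyme, was typical of them, at 6.31, 6.35, 6.29 and 6.23 in the WT host and 6.63, 6.28, 6.23 and 6.65 in the Ext1S100a4Cre host, with only tumours 1 and 4 above the WT host (-0.041 without them).

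Without Ext1S100a4Cre host tumours 1 and 4, the largest differences among the 46 members were those of Ndufa7 (0.39), Ndufa4 (0.30) and Ndufa6 (0.26), with limma adjusted p-values of 0.882, 0.917 and 0.891. The median of the members was then 0.013, and the lowest values were those of Uqcrb (-0.25), Ndufb5 (-0.25) and Cyc1 (-0.22).

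Several members of complex IV have a counterpart restricted to certain tissues, and 6 such isoforms were measured, 5 with a higher and 1 with a lower mean in the Ext1S100a4Cre host (median 0.28; 4 of 6 higher and 0.12 without tumours 1 and 4). Cox6a2, the heart and skeletal muscle form of Cox6a1, had -4.65, -3.57, -1.40 and -4.36 in the WT host and -4.56, 0.010, 0.47 and -3.96 in the Ext1S100a4Cre host. It was high in Ext1S100a4Cre host tumours 2 and 3, the reverse of Cox6a1, and the difference of 1.49 had an SE of 1.29 (limma adjusted p = 0.776). The summed level of 13 skeletal muscle markers was also high in Ext1S100a4Cre host tumours 2 and 3 (Myh2 and Myh4 were too dim to be kept). It was 24.8 and 44.4 there (linear scale, in multiples of the 75th percentile), 5.76 and 7.42 in tumours 1 and 4, and 2.86 to 5.31 in the WT host. In WT host tumour 3 the 2 measures parted: its sum of 2.86 was the lowest, but its Cox6a2 level of -1.40 was the highest of the WT host. The part of muscle in this result was not tested.

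Cox7a1, the muscle form of Cox7a2, had 0.81, 0.50, -0.56 and 0.59 in the WT host and 1.17, 0.68, 0.34 and 0.92 in the Ext1S100a4Cre host, without the high values of tumours 2 and 3 seen in Cox6a2 (difference 0.44, SE 0.32). Cox4i2, a lung-enriched form of Cox4i1 that responds to low oxygen, differed by 0.20 (SE 0.13), and Cox6b2, the testis form of Cox6b1, by 0.35 (SE 0.18), each with limma adjusted p = 0.747. Ndufa4l2, a hypoxia-responsive relative of Ndufa4, had 2.39, 2.11, 0.61 and 3.04 in the WT host and 3.11, 1.36, 1.39 and 2.43 in the Ext1S100a4Cre host; the groups overlapped widely (difference 0.035, SE 0.58), whereas those of Ndufa4 did not. Cox7b2, the testis form of Cox7b, was the lower one (-0.48, SE 0.57, limma adjusted p = 0.826). Cox8b and Cox8c were not well above background on enough arrays to be tested.

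**Figure D4:**
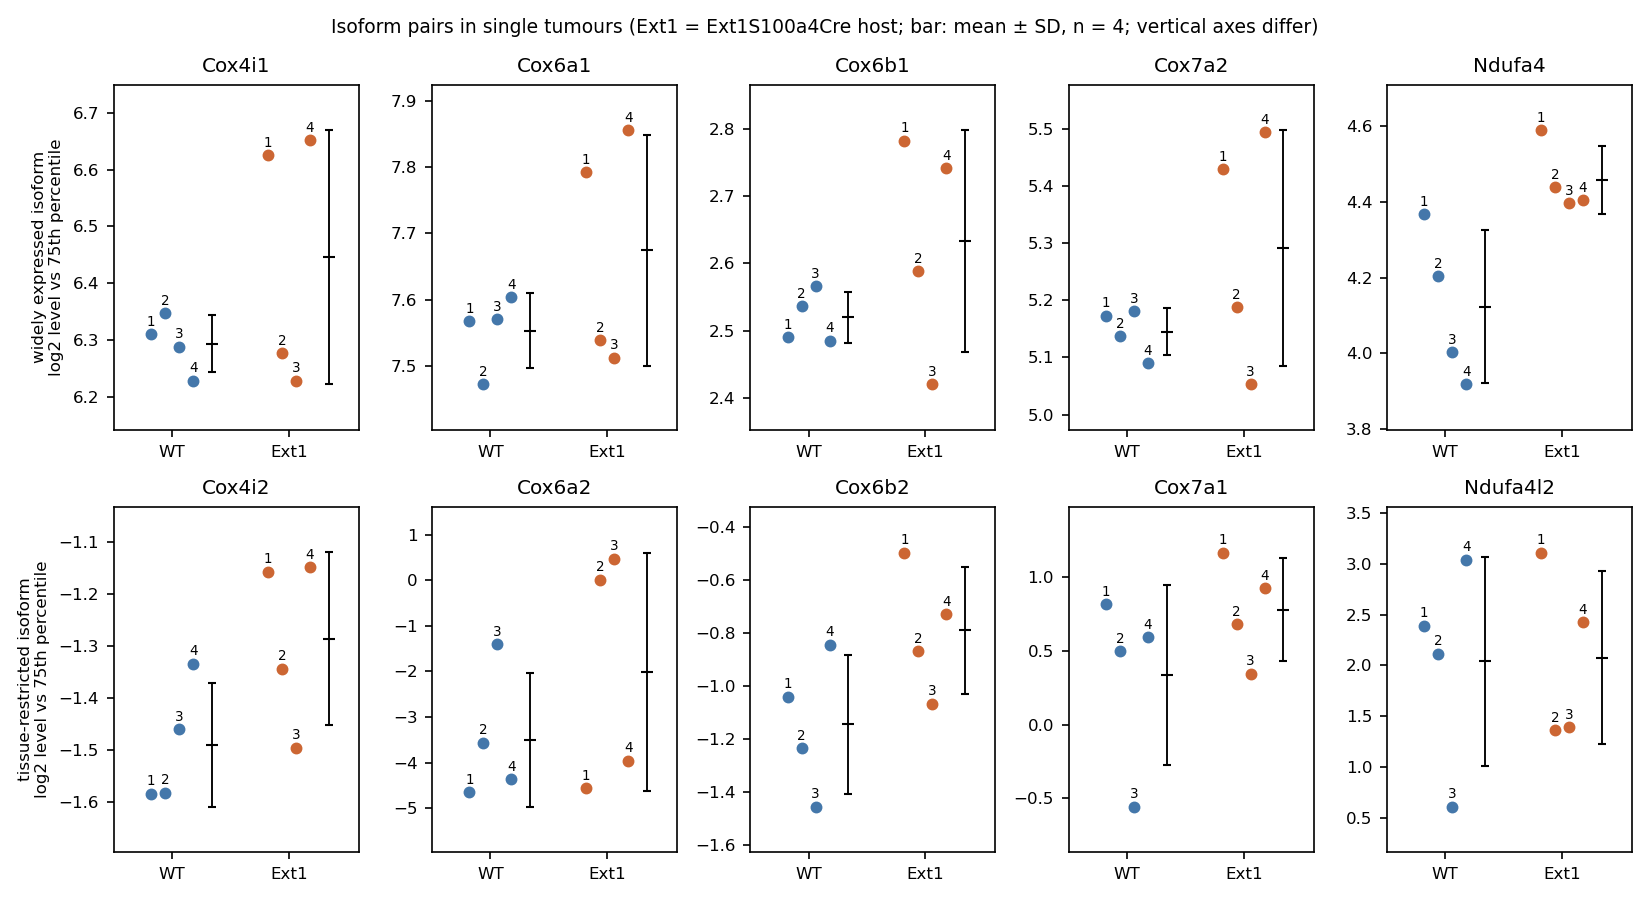
Log2 level, with the array's 75th percentile at 0 (vertical axis, range set for each gene) of 5 widely expressed subunits (upper row) and their tissue-restricted counterparts (lower row) in each tumour of the WT host and the Ext1S100a4Cre host (Ext1); points are tumours with their numbers and bars are the mean ± SD of 4. In Cox6a2 tumours 2 and 3 of the Ext1S100a4Cre host are high (0.010 and 0.47), whereas in Cox6a1 tumours 1 and 4 are.

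The other nuclear genes of the pathway, from lists drawn up by function, gave 0 calls. Of 11 further complex I subunits measured, 10 had a higher mean in the Ext1S100a4Cre host (median 0.14; 1 of 11 without scaling between arrays, and 5 of 11 with a median of -0.0028 without tumours 1 and 4), among them Ndufb11 (0.27, SE 0.14) and Ndufs6 (0.21, SE 0.13). Ndufab1, the acyl carrier protein, was the exception at -0.30 (SE 0.22). Uqcr10, Uqcr11 and cytochrome c (Cycs) gave 3 of 3 higher and a median of 0.19 (0 of 3 without scaling; 1 of 3 and -0.022 without tumours 1 and 4), and in Uqcr10 (0.20, SE 0.11) the groups did not overlap.

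No gene of complex V, the ATP synthase, is among the 47. Of its 17 nuclear genes 16 had a higher mean, with a median of 0.10, but 6 of 17 did so after quantile normalization (median -0.012), 2 of 17 without scaling, and 4 of 17 without Ext1S100a4Cre host tumours 1 and 4 (median -0.091). Atpif1, which inhibits the enzyme when it runs in reverse, had 6.16, 6.12, 6.19 and 6.10 in the WT host and 6.58, 6.26, 6.21 and 6.60 in the Ext1S100a4Cre host, without overlap (difference 0.27, SE 0.13, limma adjusted p = 0.747). The rotor stalk subunit Atp5e differed by 0.23 (SE 0.14) and the ring subunit Atp5g2 by 0.20 (SE 0.14). Atp5h was fitted without WT host tumour 4, where its spot was marked as an outlier. The 13 subunits coded by the mitochondrial genome were not analysed here.

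Assembly factors, most of which build the complexes without staying in them, gave 36 of 42 higher (median 0.15). The count was 10 of 42 without scaling, and 20 of 42 with a median of -0.021 without tumours 1 and 4. At an unadjusted p under 0.05, 4 of the 42 were higher, beside 4.39% of all genes. Sdhaf4 (0.36, SE 0.12) and Sdhaf1 (0.50, SE 0.21), which mature the subunits Sdha and Sdhb of complex II, showed no overlap. Cox7a2l, from the same list, differed by 0.35 (SE 0.13), and each of these genes had limma adjusted p = 0.747. The mitochondrial ribosome, which translates the subunits of the mitochondrial genome, gave 71 of 78 higher (median 0.11; 11 of 78 without scaling; 26 of 78 and a median of -0.079 without tumours 1 and 4); Mrps33 had the smallest p among them (0.33, SE 0.14). Pyruvate dehydrogenase and the citric acid cycle gave 13 of 16 higher (median 0.068; 2 of 16 without scaling, 6 of 16 after quantile normalization, and 4 of 16 with a median of -0.071 without tumours 1 and 4), with Suclg1 at 0.27 (SE 0.16), Sucla2 at -0.24 (SE 0.15) and Mdh2 at 0.19 (SE 0.13).

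The 14 regulators of mitochondrial genes gave 9 higher and a median of 0.042 (1 of 14 without scaling, 7 of 14 after quantile normalization, and 3 of 14 with a median of -0.059 without tumours 1 and 4). Ppargc1a, a coactivator of mitochondrial genes, was near background: it was well above it in 4 WT host tumours but in 2 of the Ext1S100a4Cre host, with a difference of -1.81 (SE 0.87, limma adjusted p = 0.747). Esrra, a nuclear receptor that binds at many genes of the respiratory chain, had 3.35, 3.32, 2.93 and 3.05 in the WT host and 3.60, 3.22, 3.25 and 3.58 in the Ext1S100a4Cre host, again with tumours 1 and 4 above the WT host (difference 0.25, SE 0.16). Myc was lowest in the same 2 tumours, at -0.11 and -1.19 against 0.32, 0.15, 0.93 and 1.49 in the WT host (difference -0.77, SE 0.45).

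Summed levels of host cell markers also differed from tumour to tumour. The summed level of 11 fibroblast markers was 118 to 502 in the WT host and 19.6, 196, 118 and 76.7 in Ext1S100a4Cre host tumours 1 to 4. That of 12 macrophage markers was 29.3 to 168 in the WT host and 5.69, 32.4, 52.3 and 20.2 in the Ext1S100a4Cre host. Both sums were thus lowest of all 8 tumours in Ext1S100a4Cre host tumours 1 and 4, where the members were highest. They were highest in WT host tumour 3, which had the lowest median deviation of the members (-0.12) and the lowest value of the 8 in 15 members. By mean, 0 of 11 fibroblast and 0 of 12 macrophage markers were higher in the Ext1S100a4Cre host. Without Ext1S100a4Cre host tumours 1 and 4, 5 of 11 fibroblast markers (median difference -0.070) and 3 of 12 macrophage markers (-0.34) were higher.

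Markers of colon epithelium, the origin of MC38 cells, summed to 72.7 to 115 in the WT host and to 66.9 to 133 in the Ext1S100a4Cre host, with tumour 1 at 77.8 and tumour 4 at 66.9. Of these markers 8 of 10 had a higher mean, but 2 of 10 without scaling between arrays and 9 of 10 without tumours 1 and 4. Summed markers of T and NK cells ranged from 5.23 to 17.1 and from 4.51 to 11.4, of B cells from 0.599 to 1.66 and from 0.290 to 0.449 (Ms4a1 was not well above background in any Ext1S100a4Cre host tumour), of endothelium from 5.29 to 7.48 and from 2.11 to 6.69, of red cells from 102 to 334 and from 241 to 1134, and of adipocytes from 4.34 to 13.1 and from 1.35 to 19.2; the red cell gene Epb42 and the adipocyte genes Plin1 and Ucp1 were too dim to be kept. The part of these cells in the members' levels was not tested.

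**Figure D5:**
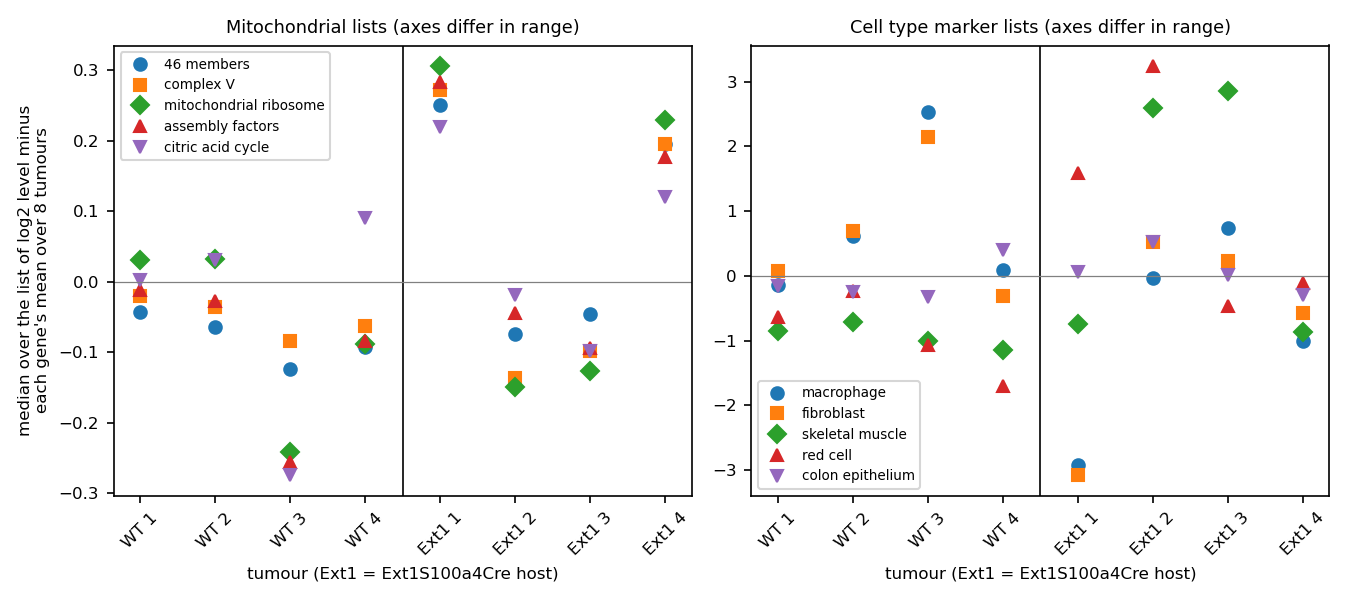
Median over each list of the log2 level minus the gene's mean over 8 tumours (vertical axes, of different range), for mitochondrial lists (left) and cell type markers (right), in each tumour of the WT host and the Ext1S100a4Cre host (Ext1). After scaling to the 75th percentile, all 5 lists on the left are highest in Ext1S100a4Cre host tumour 1 and next highest in tumour 4; on the right, macrophage and fibroblast markers are lowest in the same 2 tumours, and muscle markers are high in tumours 2 and 3.

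The precision allowed for small differences only in part. Limma's 95% intervals for the members were 0.48 to 0.89 wide, and their outer bounds were -0.41 and 0.77, so that these data do not show that any member was equal in the hosts.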

How the data were processed

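RNA from 8 tumours was measured on 1-colour Agilent arrays of 1 slide; each of its 2 rows of arrays carried 2 tumours per host. The deposited numbers are linear spot intensities which, per the file headers, came from Feature Extraction 10.7.3.1 (the submitters' processing notes name version 9.1), with background subtracted; the other deposited columns used are flags for spots well above background, saturated or outlying. The deposited series matrix held the same intensity values with no scaling between arrays (100% of its values per array within 0.01%).

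From the authors' files, each processed intensity was put on the log2 scale, and the 75th percentile of its array was subtracted. Each array had 62976 spots, 3671 of them controls, which were left out. Outlier spots (53 to 132 per array) were left out, and spots of a probe were averaged. Of 56605 probes, the 39716 well above background on at least 4 of 8 arrays were kept. Names came from matching accessions to RefSeq genes of assembly GRCm38.p6, which named 32994 probes; the headers name another build, so no coordinates are given. Each gene was represented by its kept probe of highest mean, the rule that also chose each member's probe. No promoter or protein sequence was used here.

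The comparison of hosts used lmFit and eBayes of limma 3.58.1 (R 4.3.3, two-sided, no covariates), with adjusted p under 0.05 as the threshold over 31281 genes. The fit was tested on simulated data. Files were read with jsonlite 2.0.0 and the package data.table (version 1.17.8). Single genes were also compared by an exact permutation test over the 70 assignments of 4 of 8 tumours. The number of arrays limits the precision.

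The members and gene lists were chosen with earlier results of these data known. Values are given tumour by tumour for 17 members: the 8 with the smallest unadjusted p, the 2 of each complex with the largest differences, and the brightest and dimmest of each complex. Other members are given as examples where their tumours showed a pattern seen in the values, and up to 3 genes are named per pathway list, by smallest p, with the tissue-restricted isoforms. Alternatives were other scalings, normexp background correction (offset 50), other probe filters, the mean of a gene's probes, the replicate number or slide row as a block, array weights, robust eBayes with a trend, 0.1 as the threshold and leaving tumours out. Percentiles with each probe counted once, chosen after seeing the data, were added.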

Additional observations from a re-analysis of the deposited data

Results flagged for a closer look

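Each of 44 sets of 4 values (17 members and the members' and complexes' medians, in each host) was examined for a tumour far from the other 3; chance alone marks about 1 in 20 such sets, and 4 stood out, all in the WT host. Ndufa6 was 4.891 in WT host tumour 2, against 5.00 to 5.01 in the other 3. Ndufa7 was 4.497 in WT host tumour 3, against 4.80 to 4.84. Cox8a was 6.977 in WT host tumour 1, against 6.88 in the others. The median deviation of the 7 complex III members was -0.1743 in WT host tumour 3, against -0.0060 to 0.0089 in the other 3.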

How the results depend on the processing

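The comparison was repeated under 26 alternatives, and limma called 0 members in each that allows a test. Members were mostly higher in the Ext1S100a4Cre host in 25 of the 26. The exception was the unscaled series matrix, with 7 of 46 higher and a median of -0.1083. Several of the 25 could not change that count, since they leave each member's difference as it was. These were the threshold of 0.1, robust eBayes with a trend, the replicate number, the slide row and the other probe filters. With 1 tumour left out, 39 to 45 members were higher, the median was 0.09579 to 0.1924, and 0 to 2 genes were called (2 without WT host tumour 3). Without Ext1S100a4Cre host tumours 1 and 4, 11 genes were called and the median was 0.01329. The majority was then slight, with 26 of 46 members higher beside 50.1% of all genes. Without tumours 2 and 3 the median was 0.2923. Normexp background correction and array weights called 1 gene each. Within slide rows 1 and 2 the median was 0.14 and 0.15.

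Signs are listed here only for the 17 members given tumour by tumour, and other members turned as well. Leaving out the scaling changed each member's difference by -0.25. Among the 17 this put below 0 those of Cox6a1 (-0.1288), Ndufb3 (-0.02999), Ndufa3 (-0.03615), Sdhb (-0.138), Sdhd (-0.1496), Uqcrh (-0.02316), Uqcrq (-0.06624), Cox6b1 (-0.1365) and Sdhc (-0.246). Other signs among the 17 turned as follows, and the cause was not tested. Sdhc, whose difference was near 0, gave -0.06855 with quantile normalization, -0.03512 with the percentile over probes bright on all arrays, -0.000363 with each probe counted once, -0.003347 with normexp, -0.04929 with array weights, -0.1082 in slide row 1, -0.09004 to 0.09328 over the 8 fits that left out a tumour (below 0 without WT host tumour 3 or 4 or Ext1S100a4Cre host tumour 1 or 4) and -0.154 without tumours 1 and 4. Without tumours 1 and 4, Cox6a1 (-0.02798), Sdhd (-0.06087), Uqcrh (-0.008896) and Cox6b1 (-0.01551) turned, and quantile normalization turned Cox6a1 (-0.07988). Cyc1 ranged from -0.1433 to 0.04987 with a tumour left out (above 0 only without Ext1S100a4Cre host tumour 3) and was 0.1406 without tumours 2 and 3.

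With the replicate number as a block, 0 genes were called, the median was 0.1417, and 2 members, not 4, had an unadjusted p under 0.05. The labels do not say that the numbers pair tumours, and deviations of same-numbered tumours correlated at 0.49, -0.16, 0.59 and -0.25 for numbers 1 to 4; 2 of the 4 correlated best with their own number.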
